A study of Mus musculus with 9 samples.

Results

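Monocyte marker genes were followed here in macrophages of the fetal liver (FL). They are 9 genes, Ccr2, Cx3cr1, Ly6c2, Lyz2, Chil3, Fn1, Vcan, S100a4 and Plac8, chosen by name and found in the deposited table through the Ensembl identifiers that GENCODE pairs with these symbols. All 9 had a line among the 13708 genes of the table, and all 9 passed the filter on low values, which asked for 10 or more normalized counts in 4 samples or more.

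Bulk RNA-seq was performed on CD45+ F4/80hi CD11blow macrophages sorted from livers of E15.5 mouse embryos, with 5 Mrc1Cre Xpr1fl/fl samples and 4 Xpr1fl/fl control samples. Both genotypes carry Xpr1 alleles with loxP sites around an exon of Xpr1, which encodes a phosphate exporter, and are on a C57BL/6 background. Only the Mrc1Cre Xpr1fl/fl embryos also carry Cre, inserted into the Mrc1 locus together with a fluorescent reporter, so that deletion is driven in cells that make CD206, the protein of Mrc1. Mrc1 is active in sinusoidal endothelium too, so Cre is not limited to macrophages. The cross aims at differentiated macrophages rather than at monocytes, and whether monocytes kept Xpr1 was not measured here. The controls carry no Cre and thus an unmodified Mrc1 locus. The sort took Tim4hi and Tim4lo macrophages together. The sources used here do not say whether each sample came from 1 embryo, so p-values measure the spread between these samples.

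Monocytes are circulating myeloid cells. Classical monocytes carry abundant Ly6C and the chemokine receptor CCR2, through which they leave the bone marrow or liver and enter tissues, whereas nonclassical monocytes patrol vessels with little Ly6C and much CX3CR1. The fetal liver makes monocytes, and macrophages that derive from monocytes lose most monocyte genes as they take on the program of Kupffer cells (KCs), the resident macrophages of the liver. None of the 9 genes is made by monocytes alone. Lyz2 and Cx3cr1 are also macrophage genes, Chil3 and Plac8 are also made by neutrophils and their precursors, and Fn1 and Vcan encode matrix proteins that other liver cells make.

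The 9 genes did not move together. Cx3cr1 and Plac8 were higher in Mrc1Cre Xpr1fl/fl macrophages, Lyz2, Ly6c2 and Fn1 were lower, and Ccr2, Chil3, S100a4 and Vcan did not pass the test. Thus 5 of the 9 genes (55.6%) had an adjusted p under 0.05 by limma on log2(normalized count + 1) with Benjamini-Hochberg adjustment over 13594 genes, against 43.1% of all genes tested. Of all genes tested, 21.5% were higher and 21.6% lower. The genotypes did not overlap for 4 of the 9 genes (44.4%) and for 34.1% of all genes. The median log2 fold change was −0.14 over the 9 genes and 0.00 over all genes. Because 1 is added before the logarithm, the fold changes of weakly expressed genes are altered most, usually towards 0. A single sample near 0, such as control sample 4 for Chil3 (0.9 normalized counts), can shift them otherwise. In bulk RNA, fewer cells of a type and less RNA per cell cannot be told apart.

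**Figure D1:**
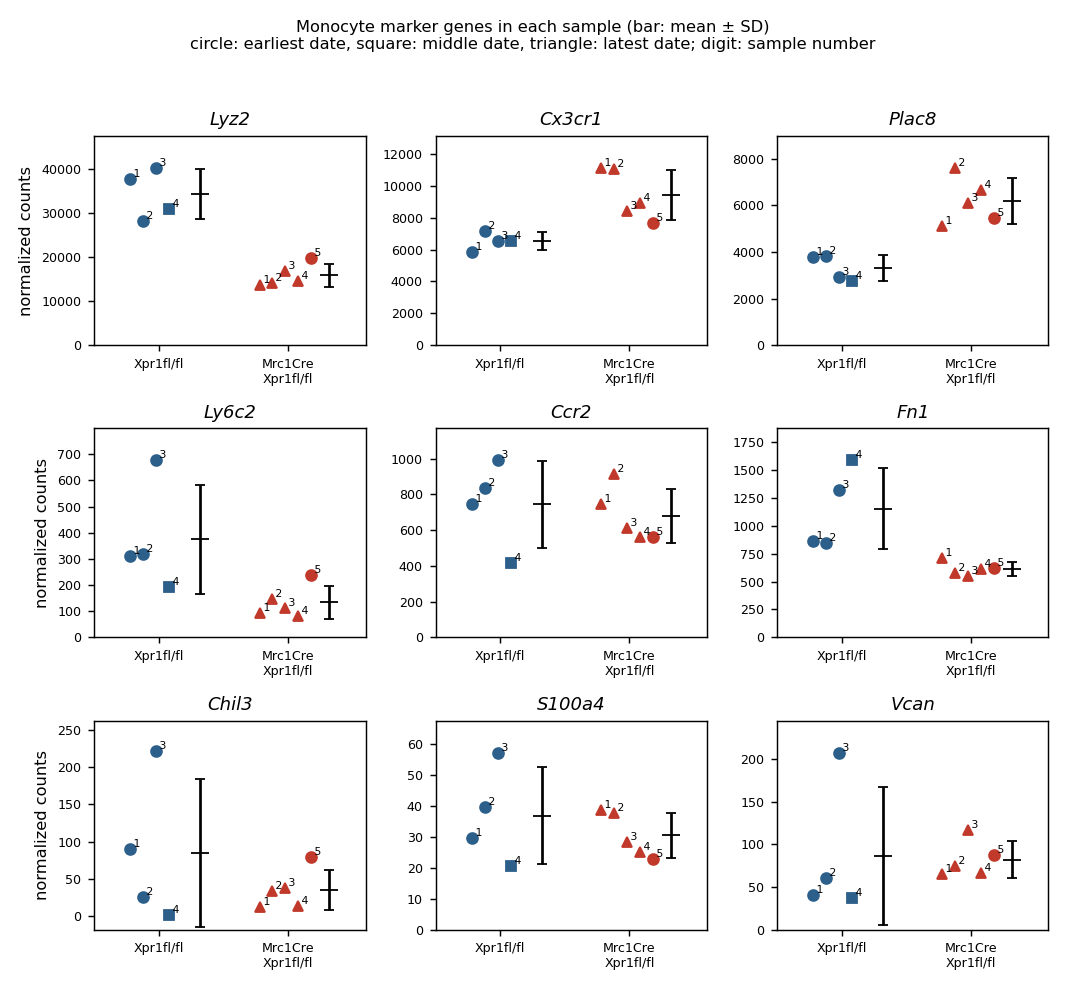
Normalized counts of the 9 monocyte marker genes in each sample (vertical axes, linear, each with its own scale), with Xpr1fl/fl samples in blue and Mrc1Cre Xpr1fl/fl samples in red, sample numbers beside the points, symbols for the date in the column name, and the mean ± SD of each genotype as a bar. The 4 control points of Lyz2 and Fn1 lie above, and those of Cx3cr1 and Plac8 below, all 5 Mrc1Cre Xpr1fl/fl points, and control sample 3 stands high at 207.2 for Vcan and 222.6 for Chil3.

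Values that bear on several of these genes are given first. Xpr1 had 1162.1 ± 84.9 normalized counts (SD, n = 5) in the presence of Cre and 1981.6 ± 204.7 (SD, n = 4) in its absence, with no overlap and a log2 fold change of −0.77 (SE 0.08, limma adjusted p = 4.13e-05). Counts are per gene, so transcripts without the deleted exon can still be counted. Mrc1, the locus that carries Cre, had 7574.1 ± 1265.6 and 24693.3 ± 2674.1 normalized counts. Adgre1, which encodes the sort marker F4/80, had 46581.0 ± 1402.2 and 46008.1 ± 4749.5 (log2 fold change 0.02, limma adjusted p = 0.816). Itgam, which encodes the other sort marker CD11b, was higher, although the gate took cells low in that protein. Its means were 2994.2 ± 336.4 and 2244.6 ± 338.1 (0.42, limma adjusted p = 0.0071). The genotypes overlapped, as control sample 3 (2683.6) lay above Mrc1Cre Xpr1fl/fl sample 3 (2671.5). The column names open with 1 of 3 dates. The earliest is on Mrc1Cre Xpr1fl/fl sample 5 and control samples 1 to 3, the middle one on control sample 4, and the latest on Mrc1Cre Xpr1fl/fl samples 1 to 4. What the dates stand for is not given in the sources used here. A fit with a term for the date (date-term fit) can only set 1 Mrc1Cre Xpr1fl/fl sample against 3 controls. It put the log2 fold change of Itgam at 0.31, beside 0.42 without the term. In that fit 1194 genes (8.78%) passed. The totals per sample, 26942921 to 28309443 normalized counts, are set by the normalization and do not give the depth.

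The chemokine receptors differed from each other. Ccr2 (ENSMUSG00000049103, chr9:123901982-123913594, plus strand of GRCm39) encodes the receptor through which CCL2 draws classical monocytes into tissue. Ccr2 had 743.2, 914.5, 611.6, 560.0 and 560.0 normalized counts in Mrc1Cre Xpr1fl/fl samples 1 to 5 and 743.9, 835.1, 989.9 and 414.2 in control samples 1 to 4. The genotypes overlapped throughout, and control sample 4 was the lowest of all 9 samples. The log2 fold change was −0.09 (SE 0.23, 95% confidence interval −0.60 to 0.41, limma adjusted p = 0.769). The interval did not reach the 0.52 of Cx3cr1 but covered a fall of that size. In the date-term fit the value was −0.60 (95% confidence interval −1.15 to −0.05, limma adjusted p = 0.16), and the 560.0 of Mrc1Cre Xpr1fl/fl sample 5 lay below the 743.9 to 989.9 of the controls of that date.

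Cx3cr1 (ENSMUSG00000052336, chr9:119877749-119898945, minus strand) encodes the fractalkine receptor of nonclassical monocytes and of many tissue macrophages and their fetal precursors. Cx3cr1 had 11139.0, 11093.1, 8455.2, 8925.5 and 7676.3 normalized counts in Mrc1Cre Xpr1fl/fl samples 1 to 5 and 5826.8, 7204.3, 6545.6 and 6565.6 in control samples 1 to 4. Every Mrc1Cre Xpr1fl/fl sample lay above every control, sample 5 by the least. The means were 9457.8 ± 1578.2 (SD, n = 5) and 6535.6 ± 562.9 (SD, n = 4), a log2 fold change of 0.52 (SE 0.11, limma adjusted p = 0.00332). It no longer passed in the date-term fit, at 0.24 (limma adjusted p = 0.405).

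The ligands of both receptors were read in the same cells. Of 5 ligand genes, 4 passed the filter, 1 was higher and 0 were lower. Ccl2, the main ligand of CCR2, had 738.9 ± 118.6 normalized counts in Mrc1Cre Xpr1fl/fl samples and 738.0 ± 37.7 in controls (log2 fold change −0.01, limma adjusted p = 0.942). Ccl12, a further CCR2 ligand of the mouse, was higher at 217.2 ± 33.9 against 138.4 ± 28.1 (0.65, limma adjusted p = 0.00656), though control sample 4 at 178.3 lay above Mrc1Cre Xpr1fl/fl sample 4 at 172.2. Ccl7 had 138.4 ± 26.9 and 182.3 ± 27.1 (−0.40, limma adjusted p = 0.0618). Cx3cl1, the ligand of CX3CR1, was near the filter with 13.6 ± 6.4 and 10.4 ± 5.6 (0.35, limma adjusted p = 0.528). Without Mrc1Cre Xpr1fl/fl sample 1, Ccl7 passed as lower (−0.50, limma adjusted p = 0.0252). It also passed as lower once samples were scaled to their 75th percentile (−0.48, limma adjusted p = 0.0303). The same held with the mean of neutrophil genes as a covariate, described below (−0.49, limma adjusted p = 0.037). None of the 4 ligand genes passed in the date-term fit (0 higher, 0 lower).

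Ly6c2 (ENSMUSG00000022584, chr15:74980003-74988467, minus strand) encodes the Ly6C antigen that defines classical monocytes in flow cytometry. Its neighbour Ly6c1 (chr15:74916862-74920663, minus strand) is nearly the same gene, so reads can be split between them by the quantifier. The 2 coding sequences are 396 bases each, and 387 bases are identical (97.7%), with an identical run of 188 bases. Of all 31-base words in Ly6c2 transcripts, 53.4% also occur in another gene, 48.8% in Ly6c1. The first 120 coding bases of each are shown 5′ to 3′ from GENCODE transcripts of GRCm39, with the 6 bases at which they differ in capitals, because they show how little sequence tells the genes apart.
Ly6c2: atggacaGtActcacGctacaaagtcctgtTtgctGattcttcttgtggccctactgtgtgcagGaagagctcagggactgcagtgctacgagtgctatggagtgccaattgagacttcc
Ly6c1: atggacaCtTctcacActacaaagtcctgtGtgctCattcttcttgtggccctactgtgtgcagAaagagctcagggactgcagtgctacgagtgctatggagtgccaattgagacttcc
Ly6c1 itself was not analysed here, and the level of Ly6c2 is uncertain to that extent.

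Ly6c2 had 94.1, 147.5, 111.8, 82.1 and 238.1 normalized counts in Mrc1Cre Xpr1fl/fl samples 1 to 5 and 310.1, 320.6, 676.9 and 193.2 in control samples 1 to 4. Mrc1Cre Xpr1fl/fl sample 5 lay above control sample 4, and otherwise the controls were higher. The means were 134.7 ± 62.8 (SD, n = 5) and 375.2 ± 209.2 (SD, n = 4), a log2 fold change of −1.43 (SE 0.36, 95% confidence interval −2.22 to −0.64, limma adjusted p = 0.0083). The date-term fit gave −0.77 (limma adjusted p = 0.295). Among the other Ly6 genes tested, Ly6a, which encodes the stem cell antigen Sca-1 and responds to interferon, was higher, with 348.6 ± 81.5 against 76.0 ± 13.4 normalized counts (2.17, limma adjusted p = 1.41e-05). Ly6a shares 3.57% of the words of Ly6c2. Ly6e was higher by a small amount, 0.22 (limma adjusted p = 0.0183), and did not pass once samples were scaled to their 75th percentile (0.14, limma adjusted p = 0.0969).

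Lyz2 (ENSMUSG00000069516, chr10:117111557-117118346, minus strand) encodes lysozyme M, the bacteriolytic enzyme of the whole myeloid lineage, and Lyz1 (chr10:117123698-117128775, minus strand) is its neighbour and near copy. Of 447 coding bases in each, 425 are identical (95.1%), and 13.3% of the 31-base words of Lyz2 transcripts occur in another gene, 12.5% in Lyz1. The first 120 coding bases are shown 5′ to 3′ as above, with the 11 differing bases in capitals, for comparison with the closer Ly6c2 pair.
Lyz2: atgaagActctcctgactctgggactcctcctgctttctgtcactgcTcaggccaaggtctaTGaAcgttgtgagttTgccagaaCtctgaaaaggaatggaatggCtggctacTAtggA
Lyz1: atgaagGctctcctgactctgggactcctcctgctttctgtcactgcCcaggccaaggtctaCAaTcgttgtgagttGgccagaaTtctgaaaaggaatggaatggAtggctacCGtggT
Lyz1 was not analysed here.

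Lyz2 had 13746.8, 14175.9, 16893.5, 14557.2 and 19778.3 normalized counts in Mrc1Cre Xpr1fl/fl samples 1 to 5 and 37753.6, 28144.9, 40229.8 and 30858.8 in control samples 1 to 4. All controls were above all Mrc1Cre Xpr1fl/fl samples, of which sample 5 was the highest. The means were 15830.3 ± 2520.7 (SD, n = 5) and 34246.8 ± 5680.6 (SD, n = 4), 2.16 times as high in controls, with a log2 fold change of −1.11 (SE 0.13, limma adjusted p = 7.36e-05). Lyz2 was the only 1 of the 9 genes to pass in the date-term fit (−0.82, SE 0.18, limma adjusted p = 0.0238), where 4.54% of all genes were lower. It passed in all 21 alternatives run, with log2 fold changes from −1.20 to −0.82.

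Chil3 (ENSMUSG00000040809, chr3:106054870-106074880, minus strand) encodes Ym1, a chitinase-like lectin that is secreted by neutrophil precursors, some monocytes and alternatively activated macrophages. Chil4 (chr3:106108806-106126823, minus strand) has a coding sequence that matches it at 1141 of 1209 aligned bases (94.4%), and 36.8% of the words of Chil3 transcripts occur in another gene, 25.7% in Chil4. Only 3 of the first 120 coding bases differ, in capitals below, fewer than in the other 2 pairs.
Chil3: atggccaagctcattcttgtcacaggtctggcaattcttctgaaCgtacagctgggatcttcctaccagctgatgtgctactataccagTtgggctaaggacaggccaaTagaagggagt
Chil4: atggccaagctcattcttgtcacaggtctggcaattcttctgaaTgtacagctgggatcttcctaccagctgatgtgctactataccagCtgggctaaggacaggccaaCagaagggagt
Chil4 was not analysed here.

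Chil3 had 12.3, 33.0, 37.7, 13.4 and 78.8 normalized counts in Mrc1Cre Xpr1fl/fl samples 1 to 5 and 90.4, 25.4, 222.6 and 0.9 in control samples 1 to 4. The controls held both the highest and the lowest value. The log2 fold change of −0.14 had a 95% confidence interval from −2.62 to 2.33 (SE 1.13, limma adjusted p = 0.931), a range that holds differences of several-fold in either direction.

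Neutrophil genes varied in the same samples as Chil3. S100a9, a calcium-binding protein that neutrophils hold in large amounts, had 907.5, 953.2, 1786.8, 1374.3 and 4994.6 normalized counts in Mrc1Cre Xpr1fl/fl samples 1 to 5 and 9513.5, 4000.2, 14013.4 and 636.9 in control samples 1 to 4. Ngp and Ltf, proteins of neutrophil granules, were likewise highest in control sample 3 (10997.6 and 8013.3) and lowest in control sample 4 (193.0 and 101.9). The 14 neutrophil genes measured of 15 listed summed to between 4682 and 21385 normalized counts in Mrc1Cre Xpr1fl/fl samples and between 3841 and 50198 in controls, none was at 0 in every sample, and 1 of 14 was lower and 0 higher. Without control sample 4, 8 of 14 were lower (median log2 fold change −2.04). Without control sample 3, 1 of the 13 that then passed the filter was lower (median −0.34). The median was −1.01 with all samples and −0.06 in the date-term fit. Over the 14 genes, the mean log2(normalized count + 1) was 6.83, 6.88, 7.62, 7.34 and 9.36 in Mrc1Cre Xpr1fl/fl samples 1 to 5. It was 9.66, 8.43, 10.36 and 6.09 in control samples 1 to 4.

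This mean was entered as a covariate in a fit added after the data were seen. The log2 fold change of Chil3 then turned from −0.14 to 1.27 (95% confidence interval 0.25 to 2.28, limma adjusted p = 0.0519). The 5 genes that passed without it passed with it, 2 higher and 3 lower, as did 36.8% of all genes (18.3% higher and 18.6% lower). Lyz2 stood at −0.98 (limma adjusted p = 5.4e-05) and Ly6c2 at −1.04 (limma adjusted p = 0.00713), beside −1.11 and −1.43 without the covariate.

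**Figure D2:**
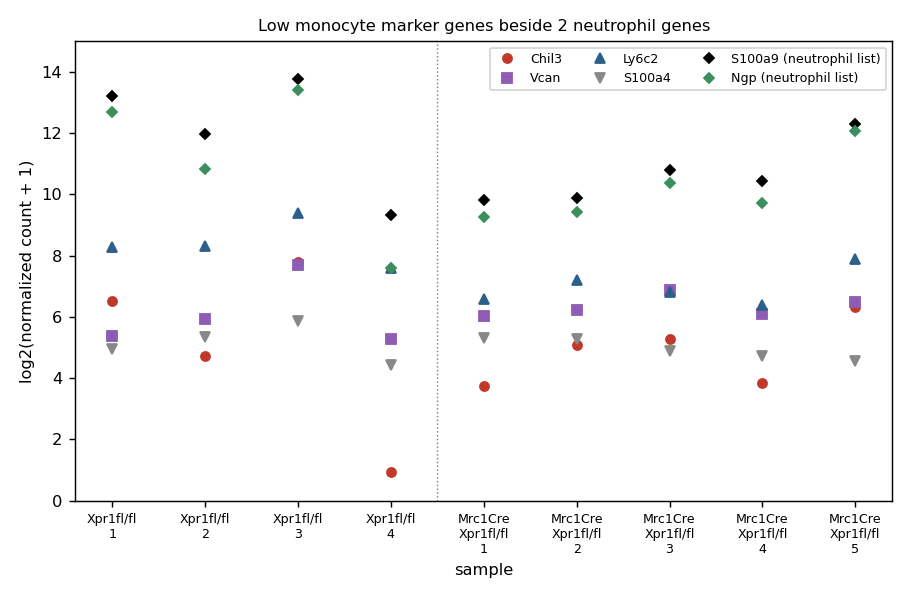
Log2(normalized count + 1) of 4 monocyte marker genes with low counts (Chil3, Vcan, Ly6c2 and S100a4) and of the neutrophil genes S100a9 and Ngp, for each sample along the horizontal axis, with the 4 Xpr1fl/fl samples left of the dotted line. All 6 genes are highest among controls in control sample 3 and lowest among controls in control sample 4.

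The matrix genes differed from each other as well. Fn1 (ENSMUSG00000026193, chr1:71624673-71692419, minus strand) encodes fibronectin, the glycoprotein to which erythroblasts and other cells attach through integrins. Fn1 had 708.1, 574.1, 550.1, 608.1 and 616.7 normalized counts in Mrc1Cre Xpr1fl/fl samples 1 to 5 and 863.4, 843.2, 1317.8 and 1583.7 in control samples 1 to 4. All controls were above all Mrc1Cre Xpr1fl/fl samples, and the controls spread more widely. The means were 611.4 ± 60.3 (SD, n = 5) and 1152.0 ± 361.7 (SD, n = 4), a log2 fold change of −0.87 (SE 0.17, limma adjusted p = 0.00221). In the date-term fit it was −0.68 (limma adjusted p = 0.102).

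Fn1 is also a gene of hepatocytes and endothelial cells, whose lists moved in the same direction. All 10 hepatocyte genes were lower, with summed levels of 34920 to 45202 normalized counts in Mrc1Cre Xpr1fl/fl samples and 58914 to 101312 in controls. Of 10 endothelial genes 8 were lower and 0 higher, with sums of 6498 to 8591 and 10539 to 14222. In the date-term fit 2 of 10 hepatocyte genes and 1 of 10 endothelial genes were lower. No gene of either list was at 0 in every sample. Control sample 4 had the highest value of Fn1 and the highest hepatocyte sum. The part of these cells in the result for Fn1 was not tested.

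Vcan (ENSMUSG00000021614, chr13:89803431-89890814, minus strand) encodes versican, a large proteoglycan that classical monocytes make. Vcan had 64.9, 74.2, 116.6, 66.6 and 87.7 normalized counts in Mrc1Cre Xpr1fl/fl samples 1 to 5 and 40.7, 60.1, 207.2 and 37.6 in control samples 1 to 4. Control sample 3 lay above all other samples, and the other 3 controls lay below all 5 Mrc1Cre Xpr1fl/fl samples. The log2 fold change was 0.27 (SE 0.43, 95% confidence interval −0.67 to 1.21, limma adjusted p = 0.644). Without control sample 3 it was 0.81 (SE 0.25, limma adjusted p = 0.0261). None of the 31-base words of Vcan transcripts occurs in another gene.

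Receptors and partners of fibronectin and versican were mostly higher, unlike Fn1 itself. Of 9 listed genes, 8 passed the filter, 6 were higher and 1 was lower, with a median log2 fold change of 0.42. Itga5, the α chain of the classical fibronectin receptor, had 2712.7 ± 143.8 normalized counts in Mrc1Cre Xpr1fl/fl samples and 1252.7 ± 147.6 in controls (1.12, limma adjusted p = 5.42e-06). Itga4, the α chain of VLA-4, by which monocytes adhere to vessels, had 13067.4 ± 2499.6 and 7352.3 ± 1149.1 (0.82, limma adjusted p = 0.0014). Their common β chain Itgb1 rose by 0.41, the hyaluronan receptor Cd44 by 0.42, and the syndecan Sdc4 by 0.49 on the log2 scale (limma adjusted p = 0.000238, 0.000758 and 0.00335). Itgav, the α chain of vitronectin receptors, was higher by 0.36 (limma adjusted p = 0.0165), but stood at −0.07 in the date-term fit (limma adjusted p = 0.649) and at 0.25 under quantile normalization (limma adjusted p = 0.0612). Itgb3, its partner, was lower (−1.21, limma adjusted p = 0.0152), but not past the threshold without control sample 1 (−1.05, limma adjusted p = 0.0511). Selplg, the P-selectin ligand, was at 0.10 (limma adjusted p = 0.316). Of the 8 genes, the date-term fit left 1 higher and 0 lower.

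Of the remaining genes, 1 encodes a calcium-binding protein and 1 a small cysteine-rich protein. S100a4 (ENSMUSG00000001020, chr3:90511074-90513354, plus strand) encodes a motility protein of monocytes and other migrating cells. S100a4 had 38.6, 37.7, 28.3, 25.2 and 22.8 normalized counts in Mrc1Cre Xpr1fl/fl samples 1 to 5 and 29.7, 39.7, 57.3 and 20.7 in control samples 1 to 4. The control values enclosed all Mrc1Cre Xpr1fl/fl values. The log2 fold change was −0.20 (SE 0.30, 95% confidence interval −0.87 to 0.47, limma adjusted p = 0.625). The predicted gene Gm42674 shares 27.2% of the words of S100a4.

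Calls among the relatives of the 9 genes also went in both directions. Of 21 listed relatives 14 passed the filter, with 2 higher (Ly6a and Ly6e) and 3 lower, and a median log2 fold change of −0.15. These 5 of 14 are a smaller share than the 43.1% of all genes tested that were called. The lower genes were the S100 genes S100a1, with 152.0 ± 11.5 normalized counts in Mrc1Cre Xpr1fl/fl samples and 287.6 ± 41.4 in controls (−0.91, limma adjusted p = 0.000165), and S100a13 (−0.39, limma adjusted p = 0.044), and the eotaxin receptor Ccr3 (−0.45, limma adjusted p = 0.0236). Both of the latter were close to the threshold. S100a13 missed it without any 1 of Mrc1Cre Xpr1fl/fl samples 1, 2, 4 and 5 and control samples 1 to 3 (limma adjusted p = 0.063 to 0.125). Ccr3 missed it without any 1 of Mrc1Cre Xpr1fl/fl sample 3 and control samples 2 to 4 (limma adjusted p = 0.0503 to 0.0619). Over all 21 alternatives, S100a13 lost its call in 13 and Ccr3 in 7. Both lost it under quantile normalization, the replicate block and the date term.

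Plac8 (ENSMUSG00000029322, chr5:100701591-100720111, minus strand) encodes a small cysteine-rich protein that is abundant in monocytes, neutrophils and myeloid progenitors. Plac8 had 5104.9, 7602.6, 6116.8, 6648.5 and 5461.9 normalized counts in Mrc1Cre Xpr1fl/fl samples 1 to 5 and 3761.4, 3819.2, 2907.3 and 2730.7 in control samples 1 to 4. Every Mrc1Cre Xpr1fl/fl sample lay above every control. The means were 6187.0 ± 989.8 (SD, n = 5) and 3304.6 ± 565.9 (SD, n = 4), a log2 fold change of 0.91 (SE 0.13, limma adjusted p = 0.000292). The date-term fit gave 0.65 (95% confidence interval 0.20 to 1.11, limma adjusted p = 0.0749).

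**Figure D3:**
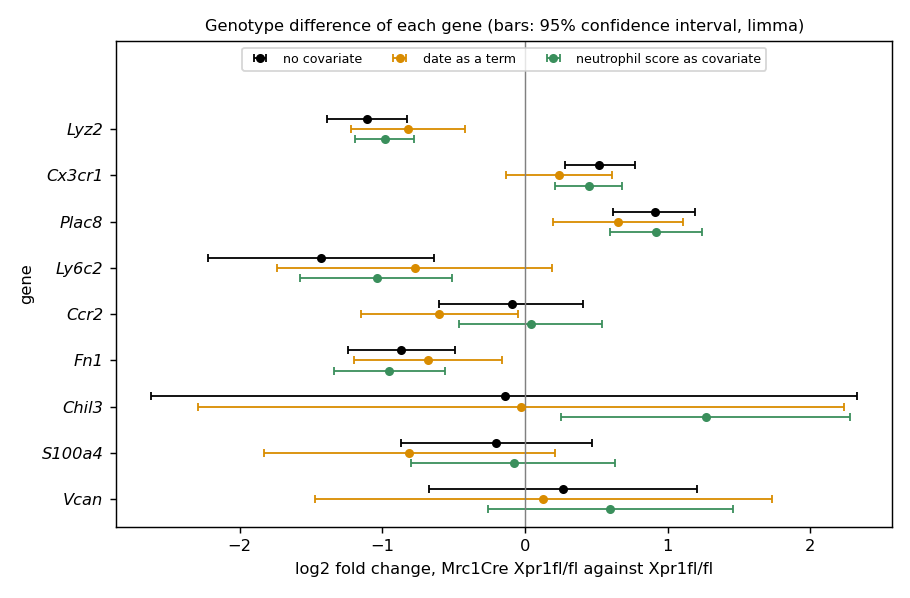
Log2 fold change of each monocyte marker gene, Mrc1Cre Xpr1fl/fl against Xpr1fl/fl, with its 95% confidence interval from limma, without a covariate (black), with a term for the date (orange) and with the mean of the neutrophil genes as a covariate (green). The black interval of Lyz2, −1.39 to −0.83, lies below 0, that of Plac8, 0.62 to 1.19, lies above it, and that of Chil3 spans −2.62 to 2.33.

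Levels can be compared between genes only per length. Per kilobase of exon sequence, Lyz2 was at 10300 ± 1710 normalized counts in controls (SD, n = 4) and 4760 ± 758 in Mrc1Cre Xpr1fl/fl samples (SD, n = 5). Cx3cr1 followed at 1400 ± 121 and 2030 ± 339 per kilobase, and Plac8 at 750 ± 128 and 1400 ± 225 per kilobase. In every control, Lyz2 was above Cx3cr1, Cx3cr1 above Plac8, and Plac8 above the next gene. In each of the 5 Mrc1Cre Xpr1fl/fl samples the order was likewise Lyz2, Cx3cr1 and Plac8, although the range of Cx3cr1 over these samples overlapped that of Plac8. The genes that are most particular to classical monocytes were far lower. Ly6c2 was at 123 ± 68.5 in controls and 44.1 ± 20.6 in Mrc1Cre Xpr1fl/fl samples, and Ccr2 at 110 ± 36 and 100 ± 22.5 per kilobase. Fn1 was at 72.8 ± 22.8 and 38.6 ± 3.81, Chil3 at 48.5 ± 56.7 and 20 ± 15.4, S100a4 at 40.6 ± 17.3 and 33.6 ± 7.96, and Vcan at 5.23 ± 4.91 and 4.96 ± 1.29 per kilobase. From Ly6c2 down to S100a4, neighbours in the order of the controls overlapped. Exon lengths cover all annotated transcripts of a gene, so these levels are approximate.

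Other lists of monocyte genes were read beside the 9. Of 26 other genes of classical monocytes, 12 were higher and 5 lower, with a median log2 fold change of 0.40. Their sums were 75518 to 78528 normalized counts in Mrc1Cre Xpr1fl/fl samples and 59393 to 68061 in controls. Cybb, Lgals3 and Clec4a1 weigh heavily in these sums. Their means were 20540.9, 10790.7 and 10726.4 in Mrc1Cre Xpr1fl/fl samples and already 15761.6, 9027.7 and 7669.2 in control macrophages. The part of monocytes in the sums was not tested. Ms4a4c, a tetraspan membrane protein of monocytes, had 1052.0 ± 231.5 and 251.8 ± 48.3 normalized counts (2.05, limma adjusted p = 1.02e-05). The C-type lectin receptors Klra2 and Clec4a3 were higher by 1.76 and 0.62, and the signal-regulatory receptor Sirpb1c by 1.66, without overlap of the genotypes. Smaller rises were those of Clec4a1 (0.48), Cd52 (0.44), Ms4a6c (0.42), Cybb, the catalytic subunit of the phagocyte oxidase (0.38), the galectin Lgals3 (0.26) and Msrb1 (0.19). Mgst1, a microsomal glutathione transferase, was lower at 64.7 ± 31.2 against 167.8 ± 59.8 normalized counts (−1.41, limma adjusted p = 0.00437). Also lower were haptoglobin (Hp, −1.79), Gda (−1.67) and the coagulation factor F13a1 (−1.19), each with overlap between the genotypes. Among controls, Hp and Gda were highest in sample 3 (1174.7 and 515.8) and lowest in sample 4 (279.3 and 101.8), as S100a9 was. The part of neutrophils in their levels was not tested. The date-term fit put Hp at −1.05, Gda at −0.91 and F13a1 at −1.74. In the date-term fit 6 of 26 were higher and 1 was lower, beside 4.24% and 4.54% of all genes.

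Genes of nonclassical monocytes gave 6 higher and 3 lower of 13, with a median of 0.72. The lower genes were Ear2, an eosinophil-associated ribonuclease, with 1350.9 ± 193.3 normalized counts in Mrc1Cre Xpr1fl/fl samples and 2567.3 ± 537.5 in controls (−0.91, limma adjusted p = 0.000453), Spn, which encodes CD43, with 386.2 ± 32.9 and 706.0 ± 205.3 (−0.83, limma adjusted p = 0.00176), and Gngt2 (−0.28, limma adjusted p = 0.0177). Ear2 and Spn did not overlap between the genotypes. By abundance, the leading 3 were higher without overlap. Itgal, the α chain of LFA-1, had 42281.0 ± 3738.1 normalized counts in Mrc1Cre Xpr1fl/fl samples and 25573.7 ± 1921.3 in controls (0.72, limma adjusted p = 4.9e-05). Treml4, a receptor of nonclassical monocytes and some macrophages, had 9647.1 ± 395.2 and 4627.0 ± 454.4 (1.06, limma adjusted p = 3.65e-06), and the transcription factor Pou2f2 had 9151.7 ± 495.8 and 4945.0 ± 314.4 (0.89, limma adjusted p = 4.66e-06). The date-term fit left 5 of 13 higher and 1 lower.

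Of 6 transcription factors of monocyte development, 2 were higher and 2 lower. Zeb2 had 11359.6 ± 1230.0 and 8186.1 ± 607.5 normalized counts (0.47, limma adjusted p = 0.0012), and Spi1, which encodes PU.1, 3925.3 ± 133.4 and 3366.4 ± 224.9 (0.22, limma adjusted p = 0.0071). The lower factors were Cebpa, which encodes C/EBPα, with 1888.3 ± 99.9 and 3106.7 ± 563.4 normalized counts and no overlap (−0.70, limma adjusted p = 0.000379), and Klf4, needed for monocyte formation, with 520.5 ± 100.2 and 769.6 ± 156.9 (−0.56, limma adjusted p = 0.0165). Klf4 did not pass without control sample 3 (−0.46, limma adjusted p = 0.0549). Scaled to the 75th percentile, Spi1 did not pass (0.14, limma adjusted p = 0.0656). Irf8, a factor needed for classical monocytes, had 6817.1 ± 304.1 and 6385.6 ± 431.6 (0.10, limma adjusted p = 0.192). The date-term fit left 0 of 6 higher and 1 lower, with Zeb2 at 0.22 (limma adjusted p = 0.198) and Spi1 at 0.20 (limma adjusted p = 0.135).

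Genes of granulocyte-monocyte progenitors fell, 11 of 12, with a median of −1.77 and sums of 3323 to 4255 normalized counts in Mrc1Cre Xpr1fl/fl samples and 10012 to 17461 in controls. Mpo, the myeloperoxidase of azurophil granules, had 2193.7, 1639.6, 2162.6, 1982.7 and 1524.5 normalized counts in Mrc1Cre Xpr1fl/fl samples 1 to 5 and 5253.8, 7719.5, 9596.3 and 5707.1 in control samples 1 to 4 (−1.87, limma adjusted p = 2.4e-05). Prtn3, a protease of the same granules, was at −2.10 (limma adjusted p = 1.26e-05) and Cd34 at −0.32 (limma adjusted p = 0.134), or −0.49 without control sample 4 (limma adjusted p = 0.0141). In the date-term fit 9 of 12 were lower and 0 higher. No progenitor gene was at 0 in every sample. The part of progenitors in the lower levels of Ly6c2 and Lyz2, and of monocytes in the higher levels of Cx3cr1 and Plac8, was not tested.

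Markers of the sorted cells and of further cell types were counted too, beside 43.1% of all genes tested called (21.5% higher and 21.6% lower). Of 12 Kupffer cell genes 8 were lower and 2 higher (median −0.87). Of 12 pan-macrophage genes 5 were lower and 1 higher (median −0.12), 6 of 12 in all and near the share of all genes. All 12 erythroid genes were lower, with sums of 82515 to 239337 normalized counts in Mrc1Cre Xpr1fl/fl samples and 315868 to 500230 in controls, and no marker at 0 in every sample. The date-term fit left 3 of 12 erythroid genes lower, with a median of −0.96, and 6 Kupffer cell and 2 pan-macrophage genes lower. Of 6 lymphocyte genes that passed the filter 5 were lower and 1 higher. Of 10 dendritic cell genes 3 were lower and 1 higher, and of 8 eosinophil, basophil and mast cell genes 3 were lower and 0 higher. For these last 2 lists, the calls (4 of 10 and 3 of 8) were near the share of all genes. Genes of these cell types are shared in part with macrophages, and their part in the differences of the 9 genes was not tested.

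**Figure D4:**
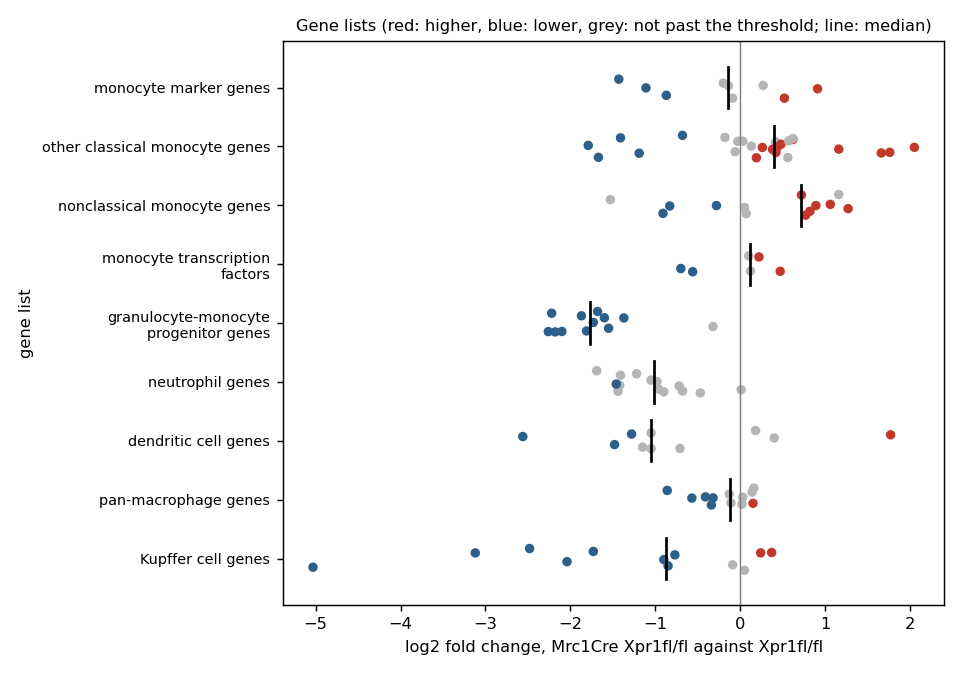
Log2 fold change, Mrc1Cre Xpr1fl/fl against Xpr1fl/fl, of each gene of 9 lists (points, red where higher, blue where lower, grey where the test was not passed, spread vertically for legibility only) with the median of each list as a line. The 9 monocyte marker genes lie on both sides of 0 around a median of −0.14, whereas the median is 0.72 for nonclassical monocyte genes and −1.77 for progenitor genes.

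Single samples weighed on the 9 genes unequally. Control sample 3 had the highest control value for 6 of them (Lyz2, Ccr2, Ly6c2, S100a4, Chil3 and Vcan), and control sample 4 the lowest for 6 (Ccr2, Ly6c2, S100a4, Chil3, Vcan and Plac8). Mrc1Cre Xpr1fl/fl sample 5, of the same date as 3 controls, had the highest value of its genotype for Lyz2, Ly6c2 and Chil3. Within the earliest date this sample had 7676.3 normalized counts of Cx3cr1 against 5826.8 to 7204.3 in the 3 controls, and 5461.9 of Plac8 against 2907.3 to 3819.2. It had 19778.3 of Lyz2 against 28144.9 to 40229.8, 238.1 of Ly6c2 against 310.1 to 676.9, and 616.7 of Fn1 against 843.2 to 1317.8. For all 5 genes that passed, its value lay outside the range of the controls of its date. It lay on the side of the other Mrc1Cre Xpr1fl/fl samples. Sample 5 was in the fit that gave these calls, so its place is no separate support for them. Of the genes that did not pass, Ccr2 (560.0 against 743.9 to 989.9) and S100a4 (22.8 against 29.7 to 57.3) also lay below those controls. Chil3 and Vcan lay within their range. The 4 samples of the latest date are of 1 genotype, so date and genotype cannot be told apart there. The 5 calls held when any single sample was left out, and without control sample 3 Vcan passed as well.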

How the data were processed

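Bulk RNA-seq of macrophages sorted from E15.5 livers was deposited as a signal per gene for 9 samples, 5 Mrc1Cre Xpr1fl/fl and 4 Xpr1fl/fl. The authors ran FastQC, quantified reads with salmon against GRCm39, annotated transcripts through AnnotationHub, imported with tximport, and divided the gene counts by DESeq2 normalization factors. The submitters' processing notes name FastQC and DESeq2, and tool versions are not given in the sources used here. Reads shared by near-identical genes were divided by salmon's model, which can move counts between them. The smallest mean of any gene was 5.79 normalized counts, so lower genes had been left out. Whole reads could not be recovered, since the best-fitting step accounted for only 26.5% to 49.7% of low values (those under 10 that fell within 5% of a step from a multiple, where chance gives 10%), and absolute depth is unknown. A count test, which the planned design allowed for whole reads only, was therefore not run.

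Symbols (13698 of 13708 identifiers), coordinates and transcript sequences came from GENCODE release M39 of GRCm39. Genotypes were compared with limma 3.58.1 in R 4.3.3 (lmFit, eBayes with trend). Values entered as log2(normalized count + 1), and a gene was kept if 4 samples or more had 10 normalized counts or more. P-values are two-sided and adjusted by the Benjamini-Hochberg method over the 13594 genes tested (threshold 0.05). Lists are described by counts and medians, without a set test. The code was tested on simulated data. Shared sequence was counted in words of 31 bases over all transcripts of a gene, and coding sequences of canonical transcripts were aligned end to end. Tables and figures were made in Python 3.11.15 with pandas 2.3.3 and matplotlib 3.10.9.

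The 9 genes and the gene lists were chosen with earlier results of these data known. The rule for naming covered the 9 genes, Xpr1 and Mrc1, and any tested ligand, matrix receptor or relative. It covered the classical monocyte genes past the threshold whose genotypes did not overlap and whose mean reached 50 normalized counts, and the 3 most abundant genes of each other list. All 3 are named for the nonclassical, progenitor, transcription factor and neutrophil lists. Most of those of the remaining lists enter the counts only. Itgam, as a sort marker, and the lower genes of the classical, nonclassical and transcription factor lists (Hp, Gda, F13a1, Ear2, Spn, Gngt2, Cebpa and Klf4) fall outside this rule, chosen once their values had been seen. Of the classical list, 1 gene is counted but not reported here. Alternatives were pseudocounts of 0.5 and 10, no filter and a filter of 50 normalized counts, other normalizations (quantile, or scaling to the 75th percentile), limma with array weights, with robust fitting or with no trend, a replicate block, a date term, and leaving out each sample. The mean of the neutrophil genes as a covariate was added after seeing the data. Correlations between samples were 0.947 to 0.986, and no pair was treated as 1 library.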

Additional observations from a re-analysis of the deposited data

Results flagged for a closer look

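In 17 of 218 sets of samples (109 genes examined in each genotype), the highest or lowest sample stood apart from the rest by Dixon's criterion at 95%, where chance gives about 1 in 20, or 10.9. Among the 9 monocyte marker genes this was seen for Vcan in control sample 3, with 207.2 normalized counts against 37.6 to 60.1 in the other controls.

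Mrc1Cre Xpr1fl/fl sample 5, the sample that shares its date with controls, was apart in 10 sets. It was the highest of its genotype for the neutrophil genes S100a9 (4994.6 against 907.5 to 1786.8 normalized counts), Ngp (4307.0 against 611.2 to 1325.4), Ltf (4038.7 against 483.5 to 1390.3) and Ly6g (44.6 against 1.1 to 5.9). It was also the highest for Hp (338.5 against 105.5 to 154.8), Gda (194.5 against 58.4 to 74.5), Pglyrp1 (246.1 against 47.8 to 71.7), Clec4a1 (11783.9 against 10343.5 to 10606.5) and the globin Hba-a1 (85791.2 against 25797.6 to 43152.1). It was the lowest for Itgav (4165.4 against 5908.1 to 6363.4).

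Control sample 4 was the lowest control for S100a10 (221.9 against 327.3 to 346.1) and Spi1 (3030.5 against 3456.6 to 3505.6) and the highest for Afp (23242.2 against 11650.5 to 12321.0). Control sample 2 was the lowest control for Trf (27161.3 against 36806.6 to 38737.5) and Slc40a1 (100131.5 against 111194.2 to 112483.7). Mrc1Cre Xpr1fl/fl sample 3 was the highest of its genotype for Sirpb1c (455.9 against 383.6 to 393.4). Hp, Gda, Pglyrp1, Ly6g and S100a10 were examined as list members or relatives, and the first 3 fall outside the rule for named genes.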

How the results depend on the processing

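Of the 9 monocyte marker genes, Lyz2 kept its call and direction in all 21 alternatives, and Cx3cr1, Plac8, Ly6c2 and Fn1 in all but the date term. With the date as a term, 1194 genes passed (577 higher, 617 lower), among them 1 of the 9 genes (0 higher, 1 lower). That fit rests on 1 Mrc1Cre Xpr1fl/fl sample. After scaling to the 75th percentile, 1999 genes were higher and 3706 lower, against 2926 and 2939 without it, as the median of all genes moved by −0.07. Of 61 genes compared across the alternatives, 47 passed, 20 of them in every alternative and 39 in every one but the date term, which ended 26 calls.

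Most changes of sign concerned differences near 0, other than those of Chil3, Ltf and Itgav, the last at 0.36 without the date term. The log2 fold changes that turned were those of Itgav (−0.07) and Ltf (0.19) with the date as a term, Adgre1 after scaling to the 75th percentile (−0.06), S100a4 (0.19), Chil3 (0.17), Ccl2 (0.01), Selplg (−0.00) and Irf8 (−0.01) under quantile normalization, Ccl2 (0.02) with array weights, and Ccr2 (0.04), Chil3 (1.27) and Adgre1 (−0.02) with the neutrophil covariate. Over the fits that left out 1 sample, the log2 fold change of Chil3 ran from −1.50 to 0.79, of Ccl2 from −0.09 to 0.07, of Adgre1 from −0.02 to 0.09, of Ltf from −1.75 to 0.34, of Ccr2 from −0.35 to 0.06 and of S100a4 from −0.44 to 0.04. Only the date term turned a gene that had passed, and the cause was not tested.

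The replicate numbers shared by the genotypes did not pair the samples, with correlations of deviations of −0.03, 0.15, −0.01 and −0.03 for numbers 1 to 4. With the replicate block, 6226 genes passed in place of 5865, and 5 of the 9 genes. Absolute depth is unknown, so the precision of low genes such as Chil3, S100a4 and Cx3cl1 rests on the spread between samples alone.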
